A study of Mus musculus with 30 samples.

Results

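The 10 genes described here are targets of the transcription factor NRF2 that make antioxidants, detoxify electrophiles or supply NADPH: Nqo1, Gclc, Gclm, Txnrd1, Srxn1, Slc7a11, Gstm1, Gstm7, Pgd and G6pdx. They were taken by gene symbol from 3 tables of RNA sequencing values, which together name 21038 genes. The values of sorted progenitors covered 9 of the 10 (no row for Slc7a11) among 11740 genes, those of bone marrow 9 (no row for Gstm7) among 11275, and those of stromal cells all 10 among 20619.

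The study models myeloid neoplasms that follow cytotoxic therapy, in C57BL/6 mice. The therapy is represented by ENU (N-ethyl-N-nitrosourea), an alkylating agent. LSK cells (Lin-, Sca1+, Kit+, the fraction of marrow that holds stem and multipotent progenitor cells) came from 4 groups of 3 libraries. The WT group was not transplanted, and the transplanted WT group received wild-type marrow carrying a luciferase shRNA. The EAP group received Egr1+/-, Apc del/+ marrow carrying a Trp53 shRNA, and EAP with ENU was the same with ENU given to donor and recipient. All recipients were wild type, and LSK cells were sorted before disease, about 2 months after transplantation. Whole bone marrow was taken from 6 mice that had MDS and 6 that had AML, all with marrow haploinsufficient for Egr1 and Apc. The MDS mice carried the luciferase shRNA and had ENU to donor and recipient. The AML mice carried the Trp53 shRNA. Of these, AML 1, 4 and 5 had ENU to donor and recipient, AML 6 to the recipient only, and AML 2 and 3 had none. Stromal cells grew out of compact bone of 3 mice given 10% ethanol (mock) and 3 given 100 mg/kg ENU 1 month earlier, and were taken at passage 1 to 2. Reads recovered from the marrow values summed to 17341986 to 21698808 per library over the 11275 genes used. Reads outside those genes, and the sequencing depth of the other libraries, are unknown. No source used here says whether libraries of 1 group came from separate mice in every case, so p-values measure the spread between libraries.

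NRF2, encoded by Nfe2l2, is held in the cytoplasm and marked for degradation by KEAP1. Oxidants and electrophiles modify KEAP1, NRF2 then accumulates, enters the nucleus and binds antioxidant response elements with a small MAF protein, and BACH1 competes for the same elements. Among the targets, cystine import by SLC7A11 and the ligase of GCLC and GCLM lead to glutathione, TXNRD1 and SRXN1 keep the thioredoxin and peroxiredoxin systems reduced, NQO1 and glutathione transferases handle electrophiles, and G6PDX and PGD of the pentose phosphate pathway regenerate NADPH. In haematopoiesis, oxidant levels bear on stem cell quiescence, neutrophils use NADPH for the oxidative burst, and red cell precursors depend on antioxidant enzymes.

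Several libraries stood apart from their groups and enter the results below. WT 2, transplanted WT 3 and EAP 1 lay at 62.7, 48.1 and 91.1 on the first principal component of the LSK table, and the other 9 libraries at or below -10.2. AML 3 correlated with the other marrow libraries at 0.567 on average (0.791 to 0.878 for the rest), had Ptprc (CD45, carried by blood cells) at 15.3, and a summed level of B cell markers of 1622. Stromal mock 3 and ENU 3 lay at 49.7 and 36.0 on the first component, and the other 4 at or below -16.0. The transplant label of EAP 1 names wild-type marrow, against its other labels, but Trp53 in that library (65.5) was below all 6 libraries without the Trp53 shRNA (213 to 370). LSK markers were present in every LSK library, none of them at 0, and stromal markers summed to 2007 TPM in ENU 3, 4007 in mock 3 and 6139 to 7515 in the other 4 stromal libraries, with Ptprc at 0.0565 to 1.29.

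Promoter sequence of 9 of the members was available in the RefSeq table of GRCm38.p6 (Gclc had no entry), as 14 windows from 250 bases before to 50 bases after an annotated start. The antioxidant response element core was searched as TGACNNNGC on both strands. It was found in a window of 6 members, Gclm, Txnrd1, Srxn1, Gstm7, Pgd and G6pdx, and in 12.4% of all 32851 windows of that length (14% of symbols). For Srxn1 and Pgd the match began 29 and 4 bases after the start. For Gstm7 and G6pdx it lay in the first exon of a longer GENCODE transcript. A related element, TGACTCA, which begins with the same 4 letters and would count for both where GC follows, occurred in 5.2% of windows and in that of 1 member, Srxn1, at 2 places. The stretches below are from the 3 members with a match before the start and outside annotated exons, to show how the matches differ. Each is written 5′ to 3′ on the minus strand, with the matched letters in capitals, and lies before an annotated start, for Txnrd1 the second of 3.
Gclm, chr3:122245413-122245441: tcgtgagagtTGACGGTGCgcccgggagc
Txnrd1, chr10:82859104-82859132: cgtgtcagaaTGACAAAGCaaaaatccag
Srxn1, chr2:152105412-152105438: cacagcgtggTGACTCAggccctccga
Srxn1, chr2:152105469-152105495: gcccggccgcTGACTCAgggtgaattt
The letters are matches only. No binding was measured.

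In 9 comparisons between groups, no member passed an adjusted p of 0.05 in the limma test across all genes. The background of this count was low. Of all genes tested, 0.0256% passed between transplanted WT and WT, 0.0256% between EAP and transplanted WT, 0.0171% between EAP with ENU and transplanted WT, 0% between EAP with ENU and EAP, and 0.162% between all EAP and all WT libraries. In bone marrow 3.2% of genes passed between AML and MDS, 0% between the ENU-matched AML and MDS libraries, and 0.408% between AML with and without ENU. Between stromal ENU and mock 0% passed. At an unadjusted p under 0.05 the members numbered 2, 1, 2, 2 and 2 of 9 in the LSK comparisons in the order given, 4, 1 and 2 of 9 in marrow, and 1 of 10 in stromal cells. The shares of all genes at that level were 7.29%, 3.61%, 3.21%, 5.26% and 7.42%, then 29.3%, 14.8% and 12.5%, then 2.58%. edgeR's quasi-likelihood test on the reads recovered from the marrow values passed 0 members in each of the 3 marrow comparisons. Because the tissues are bulk samples, fewer cells of a type and less RNA per cell cannot be told apart. The comparisons with transplanted WT share those 3 libraries, and the marrow comparisons share the MDS or AML libraries. All AML mice carried the Trp53 shRNA and all MDS mice the luciferase shRNA. Disease and shRNA therefore cannot be told apart between AML and MDS, also where ENU exposure was matched.

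**Figure D1:**
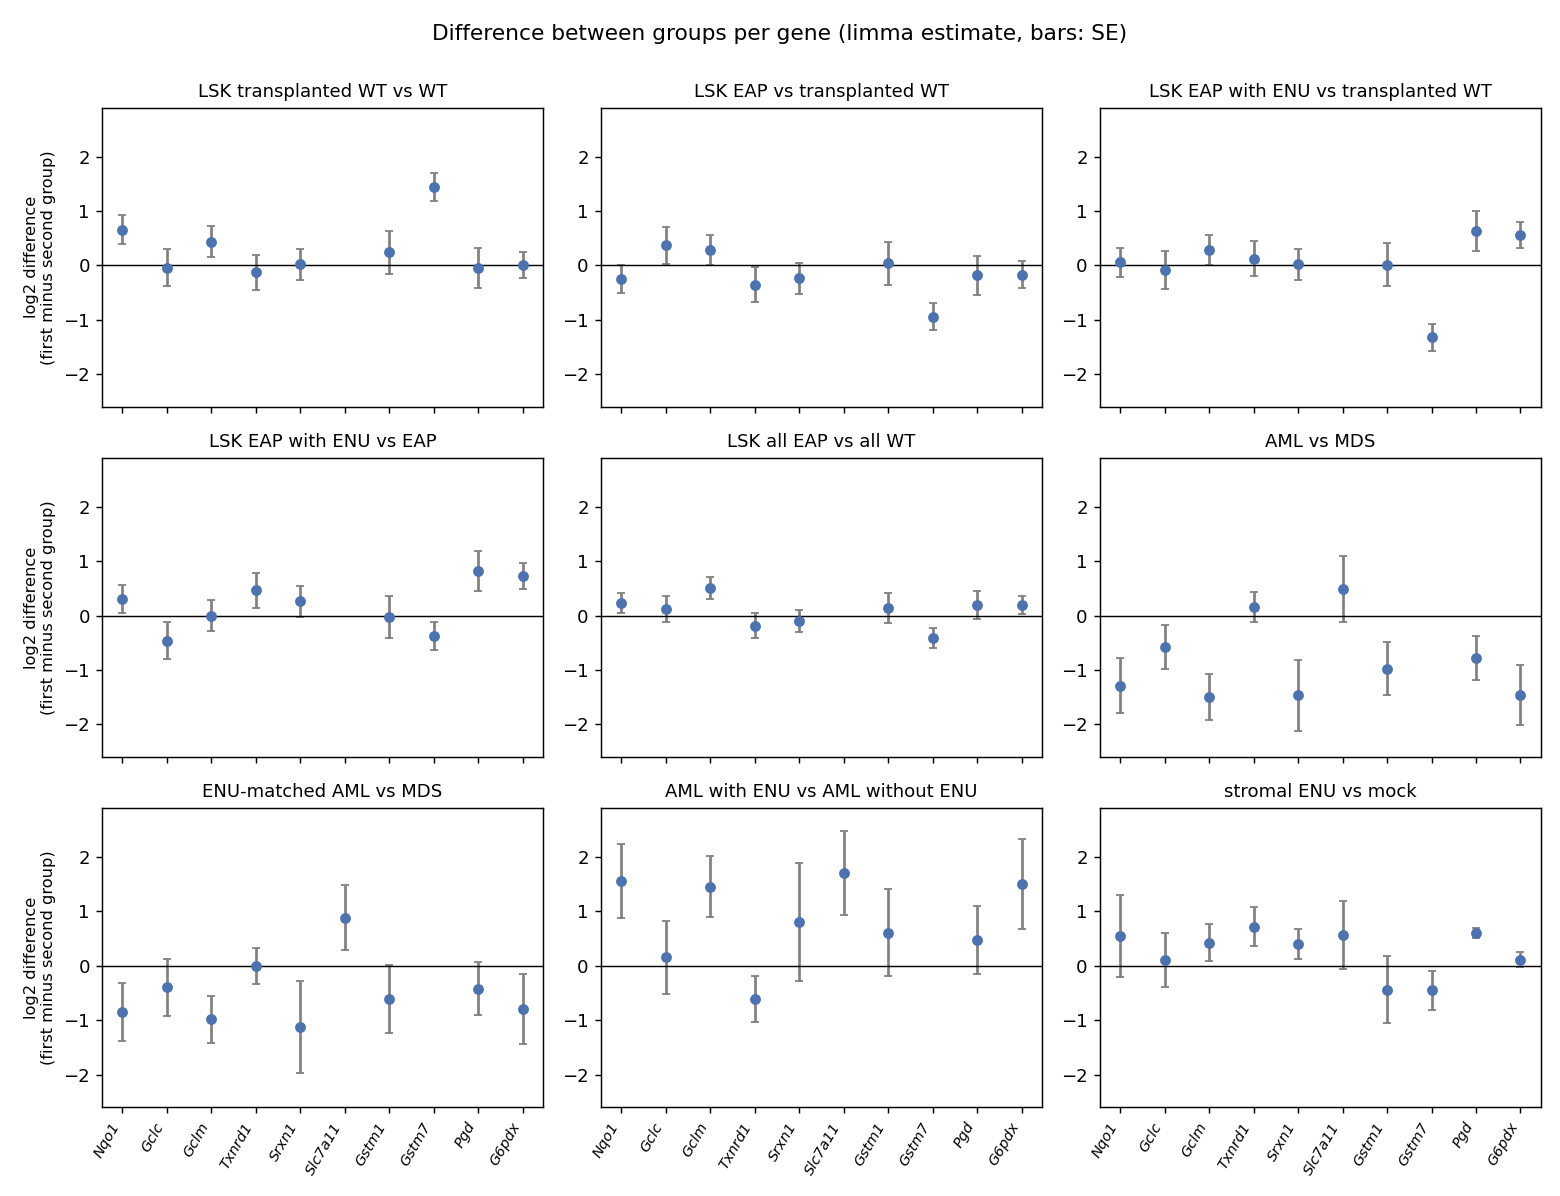
Difference between groups for each gene in the 9 comparisons, on the log2(value + 1) scale (y axis, first minus second group), as the limma estimate with its standard error. Gstm7 stands at 1.44 for transplanted WT against WT, and in the AML and MDS comparison 7 of 9 genes lie below 0. No difference passed an adjusted p of 0.05.

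Per kilobase of exon, the order of the members differed between LSK cells and marrow. In LSK cells Gstm1 led at 236 ± 80.3 normalised units per kb (SD, n = 12 libraries). Pgd (38.4 ± 12.7), Txnrd1 (37.3 ± 9.23), G6pdx (36.7 ± 9.47) and Gclm (32.3 ± 10.1) followed and lay within each other's spread, then Gclc at 24.1 ± 7.47. Nqo1 (8.17), Srxn1 (5.24) and Gstm7 (2.29) were the lowest. In marrow the NADPH genes came first, Pgd at 278 ± 135 and G6pdx at 176 ± 105 over MDS and AML together (SD, n = 12), with overlapping ranges, and Slc7a11 came last at 1.01 ± 0.837. Pgd was first in 11 of the 12 marrow libraries. In AML 3 Txnrd1 was first at 118 per kb, with Pgd at 84.5 and G6pdx at 15.3. Stromal values are TPM and already per length. There Nqo1 (305 ± 258), Gstm1 (286 ± 180), Txnrd1 (260 ± 140) and G6pdx (242 ± 28.4) headed the order within each other's spread (SD, n = 6), and Gstm7 was lowest at 1.40 ± 0.971. Levels were normalised separately in each table and are not set against each other.

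Gclc, Gclm and Slc7a11 serve glutathione synthesis. Gclc (chr9:77754535-77794485, + strand, GRCm38) encodes the catalytic subunit of glutamate-cysteine ligase, Gclm (chr3:122245557-122270732, + strand) its modifier subunit, and Slc7a11 (chr3:49892526-50443614, - strand) the cystine transporter. In LSK cells Gclm read 108, 147 and 122 among WT libraries, 160, 161 and 189 among transplanted WT, 321, 134 and 204 among EAP, and 199, 212 and 208 among EAP with ENU. WT libraries were the lowest apart from EAP 2. The 3 EAP with ENU libraries lay within a narrow band above the transplanted WT values. All 6 EAP libraries against all 6 WT libraries gave 213 ± 60.2 against 148 ± 29.0 (SD, n = 6 each), a log2 difference of 0.50 (SE 0.20, adjusted p = 0.553 by limma). With a term for the 3 libraries that stood apart, chosen after seeing the data, this was 0.59 (adjusted p = 0.0379), in a fit where 2.84% of all genes passed. Without those libraries, Gclm did not pass, and over the transplanted libraries alone the difference was 0.28.

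Gclc in LSK cells read 59.6, 108 and 71.5 among WT libraries, 71.9, 49.9 and 116 among transplanted WT, 133, 101 and 67.9 among EAP, and 66.6, 76.8 and 68.1 among EAP with ENU. The groups overlapped. In each of the 3 groups with a library that stood apart, that library held the highest Gclc, at 1.65, 1.91 and 1.57 times the mean of its 2 group mates.

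In marrow, Gclm was the member with the smallest p between AML and MDS. It read 307, 141, 115, 152, 115 and 86.9 across MDS 1 to 6, and 84.6, 42.5, 14.5, 93.0, 44.2 and 63.2 across AML 1 to 6. All but AML 4 lay below the lowest MDS value, so the groups overlapped through 1 library. The log2 difference was -1.49 (SE 0.42, adjusted p = 0.0623 by limma), with means of 57.0 ± 29.2 in AML and 153 ± 78.9 in MDS (SD, n = 6 each). Leaving out AML 1 moved the adjusted p to 0.0233, leaving out AML 1 and AML 3 (chosen after seeing the data) to 0.0252, and over the 18 alternatives tried it ranged from 0.0233 to 0.125. In those 2 fits 21.9% and 20.6% of all genes passed. Against the same MDS libraries, the 3 AML libraries with matching ENU exposure stood at 73.9 ± 26.1 (SD, n = 3), a log2 difference of -0.98 (adjusted p = 0.333 by limma). These AML libraries still differed from MDS in the shRNA.

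Markers of red cell precursors differed between the same libraries. Of 11 listed erythroid markers, 7 had a row, none at 0 in a whole group, and their summed level was 5931 to 19742 in MDS and 16.3 to 4396 in AML. MDS 1, with the highest Gclm, had the highest erythroid sum (19742), and AML 3, with the lowest Gclm, the lowest (16.3). The order differed in between. AML 6, with a sum of 165, had more Gclm (63.2) than AML 5 (sum 1092, Gclm 44.2) and AML 2 (483 and 42.5). Other lists reached higher in AML, among them T and NK markers (up to 2464, against 201 in MDS) and stromal markers (up to 1103, against 92.7). The part of these cells in the result was not tested.

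Within AML, Gclm read 84.6, 93.0 and 44.2 in the 3 libraries with ENU to donor and recipient, and 42.5 and 14.5 in the pair without. These groups did not overlap, as for 8.31% of all genes in that direction (6.69% in the other), and the log2 difference was 1.46 (SE 0.56, adjusted p = 0.304 by limma). Gclm was the only member without overlap there. The erythroid sum was 483 and 16.3 in the pair without ENU and 1092 to 4396 in the 3 with it, and Ddx3y, a Y-linked gene, was 3.46 and 0.574 against 31.7 to 84.4. The part of either in the difference was not tested. Leaving out AML 2, which leaves AML 3 as the lone library without ENU and assumes that it varies like the others, gave 2.20 (adjusted p = 0.0249). In that fit 5 further members passed: Nqo1, Slc7a11, Gstm1 and G6pdx higher with ENU and Txnrd1 lower, each against AML 3 alone, and 22.7% of all genes passed. Without AML 3 no member passed, the difference of Gclm was 0.72, and G6pdx, Gstm1, Txnrd1, Pgd and Srxn1 took the other sign.

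Gclc in marrow read 187, 107, 129, 135, 85.9 and 123 in MDS and 60.5, 38.5, 184, 227, 60.7 and 53.9 in AML. The AML values split, with AML 3 and AML 4 near or above the highest MDS library and the other 4 below the lowest. Slc7a11 read 6.11, 7.94, 6.26, 11.3, 4.22 and 3.41 in MDS and 25.1, 8.76, 0.670, 4.75, 14.2 and 26.6 in AML, the widest AML values lying on both sides of MDS. The 0.670 of AML 3 rests on 14 reads. Neither gene passed between AML and MDS (adjusted p = 0.347 for Gclc and 0.593 for Slc7a11 by limma).

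**Figure D2:**
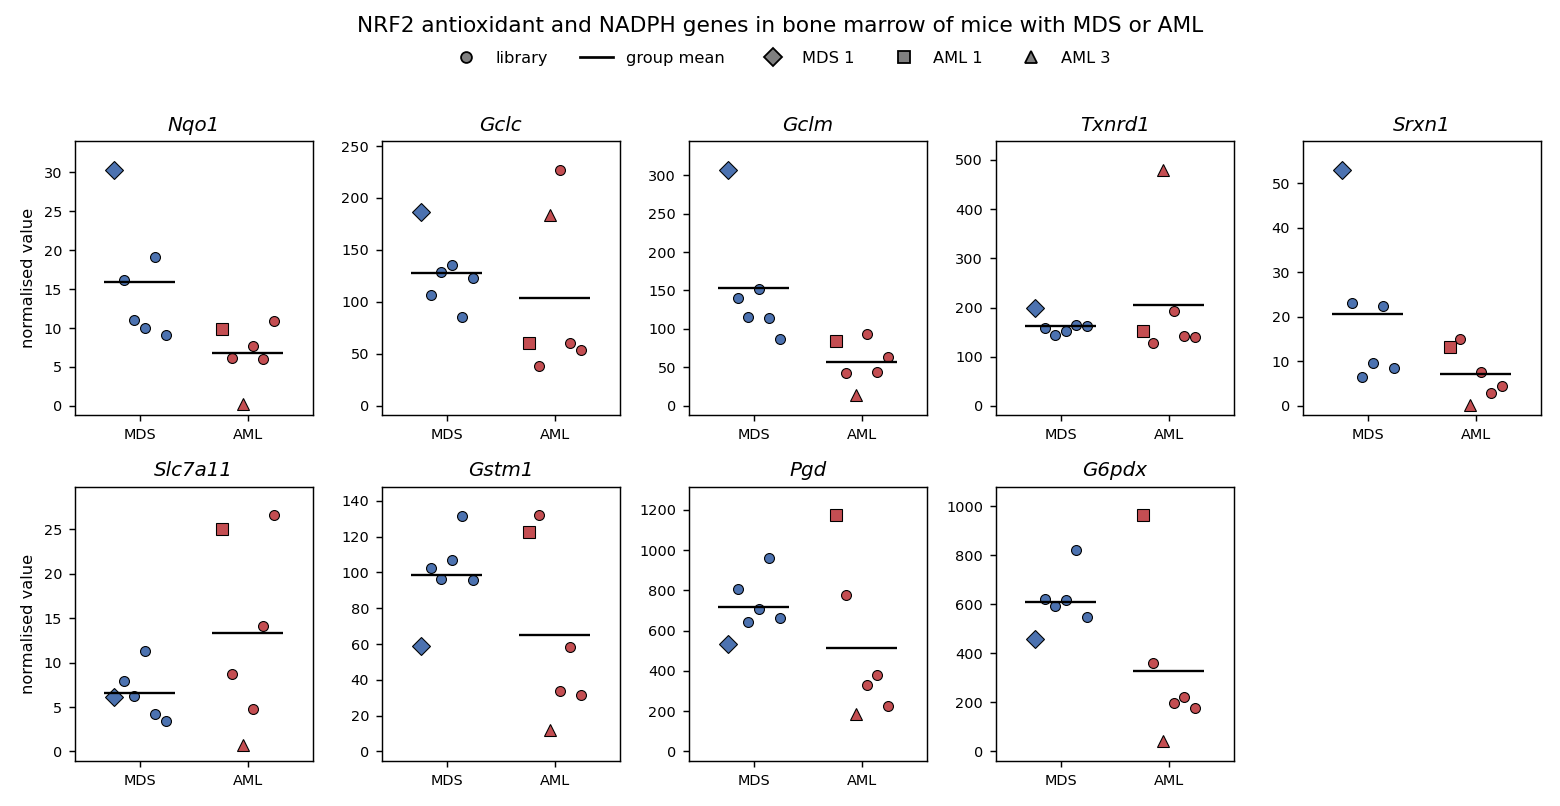
Normalised values of 9 genes in 6 MDS and 6 AML marrow libraries (points; bars are group means; MDS 1, AML 1 and AML 3 have their own symbols). AML 3 (triangles) holds the lowest value of 7 genes and the highest of Txnrd1 (480), AML 1 (squares) the highest G6pdx (963) and Pgd (1173), and MDS 1 (diamonds) the highest Gclm (307).

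In stromal cells, Gclm read 101, 75.3 and 56.4 TPM in mock and 92.9, 71.4 and 158 in ENU. Gclc read 44.7, 54.5 and 74.2 in mock and 43.8, 39.3 and 134 in ENU, and Slc7a11 3.86, 2.13 and 4.18 in mock and 2.84, 2.92 and 16.0 in ENU. For all 3 genes ENU 3 was the highest library, and ENU 1 and ENU 2 lay among or below the mock values. Against the mean of the 4 libraries other than mock 3 and ENU 3, ENU 3 was 5.44 times as high for Slc7a11, 2.94 times for Gclc and 1.85 times for Gclm. ENU 3 also had the lowest sum of stromal markers, and the part of that in its values was not tested.

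Txnrd1 and Srxn1 belong to the thioredoxin and peroxiredoxin systems. Txnrd1 (chr10:82833951-82897712, + strand) encodes cytosolic thioredoxin reductase, which uses NADPH to reduce thioredoxin, and Srxn1 (chr2:152105516-152111376, + strand) sulfiredoxin, which repairs over-oxidised peroxiredoxins. In LSK cells Txnrd1 read 204, 112 and 193 among WT libraries, 159, 179 and 118 among transplanted WT, 76.9, 119 and 175 among EAP, and 160, 169 and 159 among EAP with ENU. The library that stood apart was the lowest of its group for Txnrd1 in all 3 cases, at 0.564, 0.700 and 0.523 times the mean of its group mates, opposite to Gclc. Over the 12 libraries Txnrd1 and Gclc correlated at -0.906 (Pearson, log2 scale), and at -0.75 over the 9 libraries left without those 3. These values describe 12 libraries that share normalisation and group differences. Srxn1 ranged from 8.44 to 18.4 over the LSK libraries, and its groups overlapped in every comparison.

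In marrow, Txnrd1 read 198, 159, 143, 151, 164 and 163 in MDS and 153, 127, 480, 193, 143 and 139 in AML. AML 3 stood far above all other libraries, and without it the 2 groups covered much the same range. Srxn1 read 53.1, 23.1, 6.52, 9.56, 22.5 and 8.60 in MDS and 13.2, 15.1, 0.239, 7.60, 2.86 and 4.54 in AML. MDS 1 was the highest, AML 3 the lowest (5 reads), and 3 of 6 AML libraries lay within the MDS range. The log2 difference of Srxn1 was -1.47 (SE 0.65, adjusted p = 0.157 by limma), between means of 7.27 ± 5.90 and 20.6 ± 17.5 (SD, n = 6 each).

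In stromal cells, Txnrd1 read 158, 204 and 196 TPM in mock and 233, 224 and 541 in ENU. All ENU libraries lay above all mock libraries, as for 2.8% of genes tested (4.27% lay below), and 2 members, Txnrd1 and Pgd, did so. ENU 1 and ENU 2 exceeded the highest mock library by less than the range of the mock libraries, and ENU 3 was 2.64 times the mean of the 4 libraries other than mock 3 and itself. Srxn1 read 79.6, 79.1 and 91.4 in mock and 104, 77.9 and 165 in ENU, with ENU 2 below all mock libraries and ENU 3 the highest.

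Nqo1, Gstm1 and Gstm7 handle electrophiles. Nqo1 (chr8:107388225-107403206, - strand) encodes a quinone reductase that is widely used as a readout of NRF2, and Gstm1 (chr3:108012255-108017973, - strand) and Gstm7 (chr3:107926334-107931817, - strand) encode mu-class glutathione transferases of a single cluster. Members of this cluster are close copies of each other, so reads may have been split between them and their values are less certain. In LSK cells Gstm7 was low and set the transplanted WT libraries apart. It read 1.77, 1.62 and 1.96 among WT libraries, 5.60, 6.91 and 7.19 among transplanted WT, 3.22, 2.70 and 2.85 among EAP, and 2.87, 1.57 and 1.74 among EAP with ENU. The 3 transplanted WT libraries were the highest of all 12, and the other groups lay at or below 3.22.

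The log2 difference of Gstm7 between transplanted WT and WT was 1.44 (SE 0.25, adjusted p = 0.223 by limma). Between EAP and transplanted WT it was -0.94 (adjusted p = 0.789), and between EAP with ENU and transplanted WT -1.32 (adjusted p = 0.417). All 3 rest on the same transplanted WT libraries. The first passed with a term for the 3 libraries that stood apart (adjusted p = 0.0221) and without them (0.0389), both chosen after seeing the data, where 2.34% and 4.18% of all genes passed. These EAP comparisons did not pass in any of the 13 alternatives each, with adjusted p from 0.266 to 1.0 and from 0.131 to 1.0. Since the scale is log2(value + 1), these differences understate the ratio of so low a gene.

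Nqo1 in LSK cells read 7.72, 9.32 and 9.44 among WT libraries, 17.8, 12.7 and 13.3 among transplanted WT, 14.4, 9.04 and 13.1 among EAP, and 17.0, 12.6 and 15.9 among EAP with ENU. The WT values were below all of those in transplanted WT and EAP with ENU. Between transplanted WT and WT the log2 difference was 0.66 (SE 0.26, adjusted p = 0.616 by limma). Together with Gclm and Gstm7, Nqo1 was 1 of 3 members of 9 higher in transplanted WT without overlap, against 7.71% of all genes, and 0 were lower, against 8.42%. Gstm1 was the most abundant member in these cells, at 182 to 594, and the library that stood apart was the highest of its group, at 1.69, 1.5 and 2.37 times its group mates.

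Markers of several blood cell types also lay wholly higher in transplanted WT than in WT. The summed level of late neutrophil markers was 8.43 to 16.3 in WT and 27.9 to 38.7 in transplanted WT, that of T and NK markers 636 to 911 and 1053 to 2121, and that of eosinophil, basophil and mast markers 65.9 to 133 and 166 to 1018. The summed level of 5 granule markers of myeloid progenitors, none at 0, was 2008 to 2186 in WT, 3193 to 7252 in transplanted WT, 2873 to 18538 in EAP and 7263 to 10513 in EAP with ENU, where Gstm7 was low. The part of these cells in the higher Nqo1, Gclm and Gstm7 of transplanted WT was not tested.

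**Figure D3:**
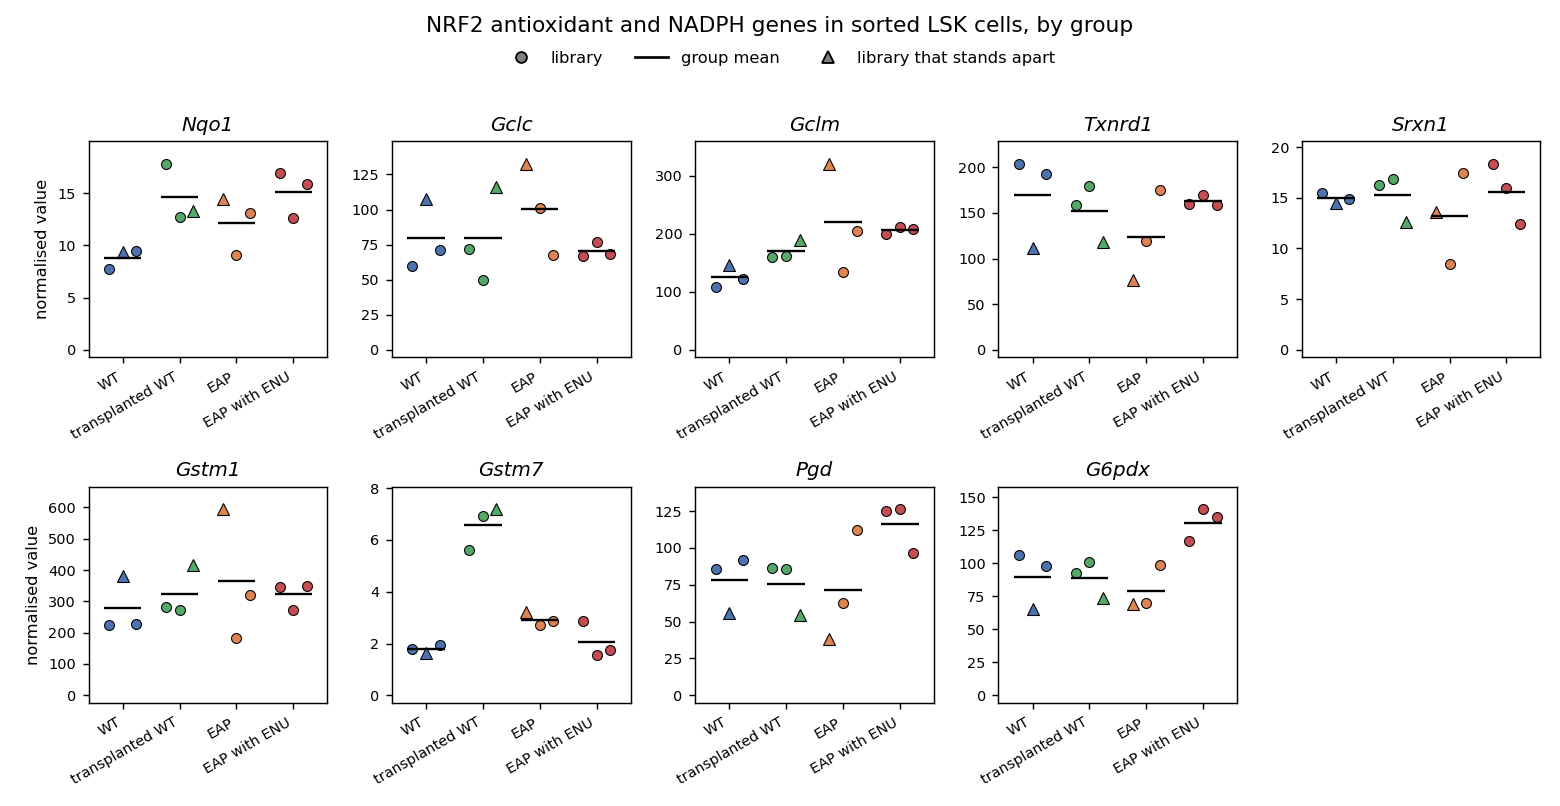
Normalised values of 9 genes in the 12 LSK libraries by group (points; bars are group means; triangles mark WT 2, transplanted WT 3 and EAP 1). Gstm7 lies at 5.60 to 7.19 in transplanted WT and at most 3.22 elsewhere, and G6pdx at 117 to 141 in EAP with ENU and at most 106 elsewhere.

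In marrow, Nqo1 read 30.3, 16.2, 11, 10.1, 19.1 and 9.14 in MDS and 9.89, 6.11, 0.239, 7.69, 5.98 and 10.9 in AML. AML 1 and AML 6 lay within the MDS range and the other 4 AML libraries below it, AML 3 on 5 reads. The log2 difference was -1.29 (SE 0.51, adjusted p = 0.127 by limma), between means of 6.80 ± 3.78 and 16.0 ± 8.03 (SD, n = 6 each). Gstm1 read 58.8, 102, 96.2, 107, 131 and 95.9 in MDS and 123, 132, 12, 34.0, 58.5 and 31.7 in AML. AML 1 and AML 2 lay near the highest MDS library, and the other 4 below the lowest, MDS 1.

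In stromal cells, Nqo1 read 194, 133 and 303 TPM in mock and 289, 105 and 805 in ENU, so that ENU 2 was the lowest of all and ENU 3 the highest. Gstm1 read 236, 166 and 604 in mock and 206, 120 and 386 in ENU. Each ENU library was below the mock library of its number, and number 3 was the highest in both groups. Gstm7 lay between 0.743 and 3.33.

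G6pdx and Pgd supply NADPH. G6pdx (chrX:74409483-74429194, - strand) encodes glucose-6-phosphate dehydrogenase, the entry to the pentose phosphate pathway, and Pgd (chr4:149149991-149166771, - strand) the 6-phosphogluconate dehydrogenase that follows. In LSK cells G6pdx read 106, 65.4 and 97.9 among WT libraries, 92.6, 101 and 73.4 among transplanted WT, 69.3, 70.1 and 98.7 among EAP, and 117, 141 and 135 among EAP with ENU. The 3 EAP with ENU libraries were the highest of all 12. Pgd read 85.9, 56.2 and 92.1 among WT libraries, 86.5, 85.4 and 54.5 among transplanted WT, 38.5, 62.9 and 112 among EAP, and 125, 126 and 96.6 among EAP with ENU. EAP with ENU was again high, but EAP 3 lay within its range.

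Between EAP with ENU and EAP, the log2 difference was 0.73 for G6pdx (SE 0.24) and 0.82 for Pgd (SE 0.36), both with an adjusted p of 0.909 by limma. Between EAP with ENU and transplanted WT it was 0.56 for G6pdx (SE 0.24, adjusted p = 1.0). Both genes were lowest of their group, in WT, transplanted WT and EAP alike, in the library that stood apart, and EAP with ENU holds no such library. Without those 3 libraries neither gene passed, and the difference of Pgd against EAP was 0.45, the same as without EAP 1 alone. G6pdx was the 1 member of 9 without overlap between EAP with ENU and EAP (6.68% of all genes in that direction, 5.98% in the other). Gclm, Pgd and G6pdx were higher in EAP with ENU than in transplanted WT without overlap (3 of 9, against 9.9% of genes), and Gstm7 was lower (1 of 9, against 8.61%). In that comparison the summed markers of monocytes and macrophages (279 to 333 against 110 to 249), megakaryocytes (445 to 562 against 388 to 409) and myeloid granules (7263 to 10513 against 3193 to 7252) were also wholly higher. The summed LSK markers were wholly lower (1712 to 2066 against 2137 to 2250), and the other marker lists overlapped. The part of cell makeup in these differences was not tested. Ddx3y, which is Y-linked, was lower in EAP (14.3, 16.0 and 22.3) than in EAP with ENU (33.6, 34.0 and 31.4). It read 30.6, 41.8 and 46.3 in transplanted WT, and 55.5, 0.0415 and 53.4 in WT, the 0.0415 being WT 2. The part of this imbalance in the differences of the X-linked G6pdx was not tested. Among the members, only Gstm7 did not overlap between EAP and transplanted WT (1 of 9 lower, against 3.18%, and 0 higher, against 3.8%).

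In marrow, G6pdx read 459, 622, 592, 618, 819 and 548 in MDS and 963, 361, 40.5, 196, 220 and 175 in AML. AML 1 was the highest library of all, and the other 5 AML libraries lay below every MDS library. The log2 difference was -1.46 (SE 0.56, adjusted p = 0.118 by limma), between means of 326 ± 328 and 610 ± 119 (SD, n = 6 each). Without AML 1 it was -1.88 (adjusted p = 0.0159), and without AML 1 and AML 3, -1.39 (adjusted p = 0.00405). Pgd read 535, 807, 645, 707, 960 and 661 in MDS and 1173, 777, 187, 332, 380 and 227 in AML, with AML 1 highest again. Its log2 difference of -0.78 (SE 0.40, adjusted p = 0.210) became -1.08 (adjusted p = 0.0368) without AML 1. In the fit without AML 1, 21.9% of all genes passed, and without AML 1 and AML 3, 20.6%.

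Neutrophil markers also differed between these libraries. All 10 listed late neutrophil markers had a row, none at 0 in a whole group, and their sum was 61540 to 98812 in MDS. It was 122717 in AML 1, 17466 in AML 2, 442 in AML 3, 16067 in AML 4, 25664 in AML 5 and 6579 in AML 6. AML 1, with the highest G6pdx and Pgd, thus had the highest sum. AML 2 was below every MDS library in this sum, while its Pgd (777) was within the MDS range. The part of these cells in the result was not tested.

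**Figure D4:**
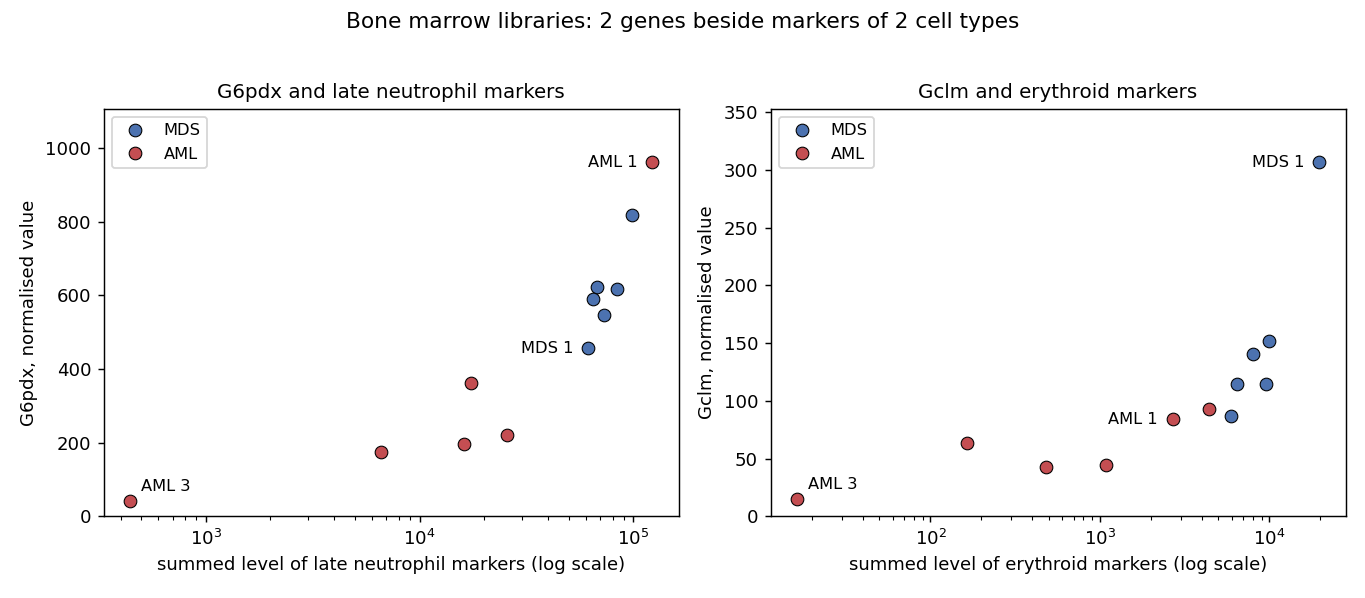
Normalised values in the 12 marrow libraries (y axes, linear) against the summed level of late neutrophil markers for G6pdx (left) and of erythroid markers for Gclm (right), both x axes on a log scale. AML 1 holds the highest G6pdx (963) and neutrophil sum (122717), MDS 1 the highest Gclm (307) and erythroid sum (19742), and AML 3 the lowest of all 4.

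In stromal cells, Pgd read 81.7, 77.6 and 79.3 TPM in mock and 124, 112 and 129 in ENU. The groups did not overlap, and each group varied little, with means of 122 ± 9.0 in ENU and 79.5 ± 2.04 in mock (SD, n = 3 each). The log2 difference was 0.60 (SE 0.09), with an unadjusted p of 0.000603 and an adjusted p of 1.0 by limma over 12089 genes. Without mock 3 and ENU 3 it was 0.56, and with the replicate number as a block 0.60 (adjusted p = 0.438). Ddx3y stood at 0.219 and 0.201 TPM in mock 1 and mock 2 and at 68.1 to 87.0 in the other 4 libraries, so libraries with and without this transcript were unequal between the groups. The part of this in the difference of Pgd was not tested. G6pdx read 229, 249 and 217 in mock and 295, 242 and 221 in ENU, and ENU 3 was not high for it.

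**Figure D5:**
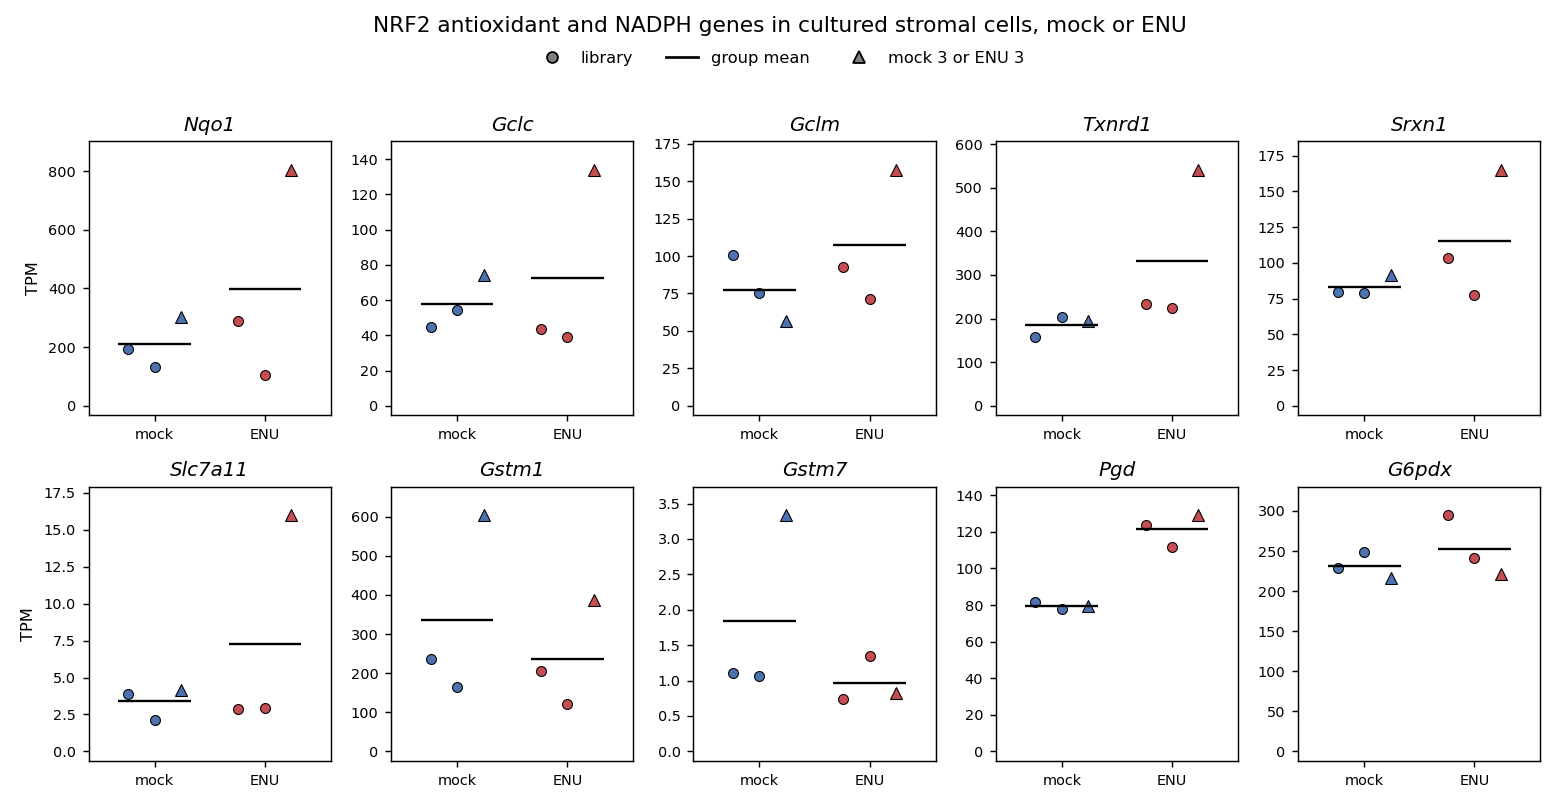
TPM of the 10 genes in 3 mock and 3 ENU stromal libraries (points; bars are group means; triangles mark mock 3 and ENU 3). ENU 3 is the highest library for 7 of 10 genes, among them Nqo1 (805), and only for Pgd and Txnrd1 do all ENU libraries lie above all mock libraries.

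Extreme values were unevenly spread over the libraries. ENU 3 held the highest value of 7 of the 10 genes in stromal cells, against 16.7% of all genes there, and Hmox1, the heme oxygenase gene and a further NRF2 target, stood at 2178 TPM in it and at 221 to 662 in the others. Nfe2l2 itself was 190 TPM in ENU 3 and 129 to 169 elsewhere. ENU 2 held the lowest value of 4 of the 10, against 16.3% of all genes. AML 3 held the lowest value of 7 of 9 genes in marrow, against 29.2% of all genes, and MDS 1 the highest of 3 of 9 (Nqo1, Gclm and Srxn1), against 8.91%. EAP 1 held the highest value of 3 of 9 genes in LSK cells (Gclc, Gclm and Gstm1) and the lowest of Txnrd1 and Pgd, against 24.9% and 23.8% of all genes, so that its count was near the background. The median log2 difference of the members was -0.97 between AML and MDS (all genes 0.04), with 7 of 9 below 0, and 0.41 between stromal ENU and mock (all genes -0.01), with 8 of 10 above 0. Without ENU 3 the stromal median was -0.02, with 5 of 10 above 0. No member was without overlap between AML and MDS, against 1.71% of genes higher and 2.13% lower, or between the ENU-matched libraries (5.13% and 4.43%), or between all EAP and all WT libraries (0.239% and 0.486%).

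Pairs of members moved together to different degrees. Pgd and G6pdx correlated at 0.868 over 12 LSK libraries (0.787 over the 9 left without those that stood apart) and at 0.93 over 12 marrow libraries (0.933 over 11 without AML 3). In marrow Gclm and Nqo1 correlated at 0.922 (0.857 without AML 3), and Gstm1 followed Pgd at 0.949 (0.945). In LSK cells Gclm followed Gstm1 at 0.8 (0.811 over 9). All are Pearson values of log2 levels, and the libraries share group, cell makeup and normalisation. Among the other genes, those most like the mean of the members were, in LSK cells, Taf10 (0.97), Tuba1b (0.96), Hist1h2ap (0.95), Rbfa (0.95) and Hist1h2ao (0.95). In marrow they were Rffl (0.98), Cmpk2 (0.97), Tcp11l2 (0.97), Fth1 (0.97) and Slfn1 (0.96), each over 12 libraries. The members themselves did not share 1 pattern, so their mean need not stand for any of them. Of 36 pairs of members, 14 correlated negatively in LSK cells (median 0.133) and 13 in marrow (median 0.404).

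In LSK cells the highest library was 1.40 times the lowest for Nfe2l2, 1.32 times for Keap1 and 2.11 times for Bach1, and 2.16 to 4.57 times for the members. In marrow these ratios were 2.96, 1.49 and 3.59, and for the members 3.79 (Txnrd1) to 222 (Srxn1). Nfe2l2 ranged from 89.0 to 124 over the LSK libraries, 83.4 to 247 over marrow, with AML 2 the highest, and 129 to 190 TPM in stromal cells. Keap1 ranged from 81.4 to 107, 45.3 to 67.4 and 38.6 to 44.7 TPM. Bach1 ranged from 2.70 to 5.70, 66.3 to 238 and 14.4 to 17.3 TPM. Of the 21 regulators listed, which also hold MAF partners, KEAP1 complex parts, NRF2 kinases and Trp53, 20 had a row in LSK cells and marrow and 21 in stromal cells. Trp53, the target of the shRNA in EAP, was the 1 regulator that passed, lower in all EAP than in all WT libraries (104 ± 42.1 against 304 ± 62.1, SD, n = 6 each), with a log2 difference of -1.61 (adjusted p = 0.0474 by limma). It passed in 7 of 19 alternatives, with adjusted p from 0.0026 to 0.345.

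Regulators nearest to passing elsewhere were, with group means in the order of each comparison, Gsk3b (12.2 against 17.9) and Sesn1 (212 against 286) for transplanted WT and WT, and Trp53 (101 against 308) and Gsk3b (20.0 against 12.2) for EAP and transplanted WT. For EAP with ENU and transplanted WT they were Trp53 (106 against 308) and Mafg (42.2 against 24.9), and for EAP with ENU and EAP Btrc (14.9 against 22.4) and Dpp9 (49.3 against 32.8). Between AML and MDS they were Trp53 (36.3 against 68.1), target of the shRNA in AML mice only, and Mafg (51.0 against 82.0). The same genes were nearest in the ENU-matched libraries (37.1 and 54.9 in AML), Mafg being a small MAF partner of NRF2. Within AML they were Nfe2l1 (102 with ENU against 153 without) and Cul3 (248 against 172), and in stromal cells Sesn1 (17.1 against 24.7 TPM) and Tigar (8.96 against 7.53 TPM). None of these passed.

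A further list of 85 antioxidant and NADPH genes (peroxiredoxins, thioredoxins, glutathione enzymes, other transferases and NADPH sources) had 75 rows in LSK cells, 69 in marrow and 85 in stromal cells, of which 83 passed the filter on low values. Between AML and MDS 4 of 69 passed, all lower in AML, against 2.21% of all genes lower and 0.994% higher. Prdx2, a peroxiredoxin abundant in red cells, stood at 190 ± 116 in AML and 699 ± 380 in MDS (SD, n = 6 each), a log2 difference of -1.95 (adjusted p = 0.0423 by limma). It read 1448, 702, 558, 579, 506 and 398 across MDS 1 to 6 and 304, 100.0, 96.0, 363, 178 and 102 across AML 1 to 6, without overlap, and was highest where the erythroid sum was highest. Htatip2, an oxidoreductase gene (-1.03, adjusted p = 0.0435), Ggt1, the gamma-glutamyltransferase of glutathione breakdown (-2.53, adjusted p = 0.0458), and Mgst3, a microsomal glutathione transferase (-1.74, adjusted p = 0.0499), were the others. The calls lay close to the threshold: Prdx2 passed in 10 of 18 alternatives, Htatip2 in 6, Ggt1 in 4 and Mgst3 in 6, with no change of direction. With any 1 MDS library left out, at most 1 of all genes tested passed. The median of the list was -0.23, against 0.04 for all genes.

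In the other comparisons none of this list passed. The members of it with the smallest p were Gstm2 (6.48 in transplanted WT against 1.37 in WT) and Gstt1 (3.62 against 1.06), then Gpx7 (5.75 in EAP against 12.2 in transplanted WT) and Pgls (239 against 400). Gpx7 (5.41) and Gstm2 (18.2) were also the nearest between EAP with ENU and transplanted WT. Gstm2, a neighbour of Gstm1 and Gstm7, was thus higher in EAP with ENU than in transplanted WT, where Gstm7 was lower. Pgls, the lactonase between G6PDX and PGD in the pentose phosphate pathway, stood at 447 ± 26.9 in EAP with ENU against 239 ± 112 in EAP (SD, n = 3 each), and Blvrb at 43.4 against 24.8. Over all EAP and all WT libraries the nearest were Gstm2 (13.1 against 3.92, adjusted p = 0.130 by limma) and Gpx7 (5.58 against 12.5, adjusted p = 0.155). In the ENU-matched marrow libraries they were Prdx2 (282 in AML) and Htatip2 (30.9), within AML Cbr3 (1.09 with ENU against 9.42 without) and Gstm5 (9.12 against 1.46), and in stromal cells Gstk1 (16.8 in ENU against 27.2 TPM in mock) and Mthfd1l (57.6 against 47.1 TPM).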

How the data were processed

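Per the labels, TRIzol was used to extract RNA, and a stranded mRNA kit to make libraries. bcl2fastq, FastQC, TopHat, SAMtools, edgeR and mm10 are named, without versions, in the submitters' processing notes, and neither the counting program nor the annotation is named there or in the labels. The LSK and marrow values, which the authors deposited as CPM, are taken here as a signal per gene, normalised by the authors, since their totals per library ran from 808377 to 1437201 and from 803746 to 1118648. The planned test had been chosen for CPM, and it was used unchanged for this signal. For stromal cells the authors deposited TPM. Of the marrow values, 99.99 to 100% were whole multiples, to within 0.05 of a read, of a step that differed between libraries, which gave the reads. No step was found in the LSK table. Among the marrow genes, 155 names that repeated another row were merged and 4 names stood on a second row of other values. 

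R 4.3.3 and limma 3.58.1 (eBayes with a trend) tested each comparison on log2(value + 1). Genes entered if they reached 1 in at least the number of libraries of the smaller group. For all EAP against all WT this was the 3 libraries of a single LSK group. Benjamini-Hochberg adjustment ran over all genes, with a threshold of 0.05. Spread between libraries was fitted jointly over the 4 groups of LSK cells. For the comparison within AML and for ENU-matched AML against MDS, it was fitted over all marrow libraries. With the ENU-matched AML and MDS libraries fitted alone, 3036 genes had an unadjusted p under 0.05, against 1671 in the main fit. In both fits 0 genes passed after adjustment. edgeR 4.0.16 was run on the recovered reads. The test was also run on simulated data with independent noise per gene and changes planted only in genes well above the filter. Those data hold no libraries that stand apart, so the run does not bear on such libraries or on low genes. Python 3.11.15, pandas 2.3.3 and matplotlib 3.10.9 were used for tables and figures. Positions and exon lengths are from GENCODE vM21 (GRCm38, the build of mm10).

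The members and lists were chosen with earlier results of these data known. All members are named in each table that holds them. Of the 2 further lists, passing genes are named (up to 6 per comparison), or else the 2 with the smallest p, with Nfe2l2, Keap1 and Bach1 throughout. Genes most like the members are the 5 others with a mean of at least 5 and the highest Pearson correlation with the mean standardised log2 level of the members. Hmox1, Ddx3y and single libraries were named after their values were seen.

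The alternatives left out each library in turn, dropped the filter, used a pseudocount of 0.1, rescaled by median of ratios, took the replicate number as a block, or used other sets of libraries or edgeR. Terms for, or fits without, libraries that stand apart were added after seeing the data. In stromal cells, deviations from the group mean of same-numbered libraries correlated at 0.559, 0.705 and 0.738 (highest with another number 0.307, 0.163 and -0.505), so the numbers were treated as pairs in the blocked fit.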

Additional observations from a re-analysis of the deposited data

Results flagged for a closer look

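In all, 5 values stood far from the rest of their group of 6 marrow libraries, by the gap to the nearest library over the range of the group (Dixon's test at 95%). Gclm in MDS 1 was 307 (others 86.9 to 152), Srxn1 in MDS 1 was 53.1 (others 6.52 to 23.1), Txnrd1 in AML 3 was 480 (others 127 to 193), G6pdx in AML 1 was 963 (others 40.5 to 361), and Nfe2l2 in AML 2 was 247 (others 85.6 to 132). They came from 24 combinations of gene and group. The test was made on untransformed values, and all 5 flags were at the high end. Its chance rate of about 5% assumes normally distributed values, so the 5 flags cannot be set against that rate.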

How the results depend on the processing

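The count of members that pass was 0 in every comparison and stayed 0 under most alternatives. It was 1 (Gstm7) for transplanted WT against WT with a term for the 3 LSK libraries that stand apart and 1 without them, 1 (Gclm) for all EAP against all WT with that term, 0 to 3 for AML against MDS when 1 library is left out (3 without AML 1: Gclm, Pgd and G6pdx) and 2 without AML 1 and AML 3 (2317 of 11274 genes passed), and 0 to 6 for AML with against without ENU when 1 library is left out (6 without AML 2, where 2559 of 11275 genes passed). The cause was not tested. For AML with against without ENU, leaving out 1 library gave log2 differences from -0.059 to 3.07 for G6pdx, -1.06 to 2.29 for Gstm1 and -1.57 to 0.35 for Txnrd1, and edgeR gave -0.0055 for Gstm1. Of 1136 values of members under alternatives, 14 passed and 78 had the other sign, none of these passing.

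With the replicate number as a block, 0 members passed in every comparison, the blocked adjusted p of Pgd in stromal cells was 0.438, and the genes passing went from 361 to 141 for AML against MDS and from 46 to 0 for AML with against without ENU. In LSK cells and marrow the numbers did not pair the libraries. Counts over all genes went from 3 to 275 with the term for the 3 libraries and 490 without them (transplanted WT against WT), and from 19 to 333 and 379 (all EAP against all WT). For AML against MDS they went from 361 to 145 with a pseudocount of 0.1. Leaving out any 1 MDS library left 0 genes passing, or 1 for MDS 4, and leaving out AML 5 or AML 6 left 0. The count was 2472 without AML 1, 644 without AML 2, 267 without AML 3 and 334 without AML 4. For AML against MDS, 112 genes were higher and 249 lower by limma, and 295 higher and 153 lower by edgeR, which left Gclm, G6pdx, Nqo1 and Srxn1 lower in AML. Nqo1 and Srxn1 in AML 3 rest on 5 reads each, in a library of 18163291 recovered reads, within the range of the other marrow libraries.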
